A study of Mus musculus with 6 samples.

Results

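The miR-193 and miR-365 microRNAs (miRNAs) were followed in brown and subcutaneous fat of mice fed EPA, which is eicosapentaenoic acid, an omega-3 fatty acid of fish oil. They were found by name in the deposited table: 7 of its 1251 miRNA rows are arms of the miR-193b and miR-365-1 locus or of its paralog, the miR-193a and miR-365-2 locus. The 3 BF-EPA libraries (numbered 3, 4 and 5) came from interscapular brown fat and the 3 SUB-EPA libraries (numbered 1, 3 and 8) from inguinal subcutaneous fat. All came from C57BL/6J mice, an inbred strain, that were 5 to 6 weeks old when an 11 week high fat diet began. Fat supplied 45% of the energy, protein 20% and carbohydrate 35%, and the diet of both groups held 6.75% EPA. The tissues were taken after a 4 hour fast. Since both groups received EPA, the comparison was between tissues and carries no measure of the EPA effect.

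A miRNA hairpin is cut into a duplex whose 5p and 3p arms can each be loaded into an Argonaute protein, and the loaded arm pairs with messenger RNAs mainly through its seed, bases 2 to 8 from the 5′ end. In fat the miR-193b and miR-365-1 locus is known as enriched in the brown depot. It was reported to promote brown adipocyte differentiation and to hold back the muscle program in cultured precursors, while mice lacking it were reported to form brown fat.

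Each locus holds a miR-193 hairpin followed by a miR-365 hairpin on the plus strand (GRCm38.p6, the assembly also called mm10). Mir193b lies at chr16:13449523-13449601 and Mir365-1 at chr16:13453840-13453926, with 4238 bases between them. Both sit inside the RefSeq long non-coding gene Gm32817 (chr16:13447952-13476317). They also sit inside a second one, Gm53058 (chr16:13447952-13467230), whose range begins at the same base. In GENCODE M21 both hairpins lie in an intron of Gm15738, an antisense gene on the minus strand. The GENCODE M21 model of Gm32817 is shorter (chr16:13462546-13467237) and holds neither hairpin: it starts 12944 bases after Mir193b and 8619 after Mir365-1. Mir193a lies at chr11:79711969-79712034 and Mir365-2 at chr11:79726400-79726511, with 14365 bases between them. No other gene of GENCODE M21 or of the RefSeq table overlaps these 2 hairpins. In GENCODE M21 they lie downstream of Rab11fip4 and of the long non-coding gene Gm11205, both on the plus strand. These genes end 13945 and 6548 bases before Mir193a. The hairpins are shown because the results turn on which arm of which hairpin was counted. They were taken from RefSeq, run 5′ to 3′ and carry the annotated 5p and 3p arms in capitals.
Mir193b: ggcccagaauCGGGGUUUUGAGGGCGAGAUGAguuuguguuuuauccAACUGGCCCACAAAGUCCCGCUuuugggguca
Mir365-1: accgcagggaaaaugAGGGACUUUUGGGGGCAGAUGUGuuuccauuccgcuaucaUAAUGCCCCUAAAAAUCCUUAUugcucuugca
Mir193a: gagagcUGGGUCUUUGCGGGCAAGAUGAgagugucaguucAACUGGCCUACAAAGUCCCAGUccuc
Mir365-2: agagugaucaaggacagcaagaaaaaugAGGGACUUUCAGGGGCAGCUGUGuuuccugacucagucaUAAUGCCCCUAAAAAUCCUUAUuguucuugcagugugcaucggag

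The mature arms follow with the seed in capitals, grouped by seed. All 7 names matched an entry of the RefSeq table.
miR-193b-3p: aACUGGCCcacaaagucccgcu
miR-193a-3p: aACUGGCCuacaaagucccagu
miR-365-3p: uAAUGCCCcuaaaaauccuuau
miR-365-1-5p: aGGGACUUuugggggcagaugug
miR-365-2-5p: aGGGACUUucaggggcagcugug
miR-193b-5p: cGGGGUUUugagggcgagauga
miR-193a-5p: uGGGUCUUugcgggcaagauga

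MiR-365-3p is the same 22 bases from both hairpins, so its value cannot be assigned to a locus. The other 6 arms differ in sequence and each belongs to 1 hairpin. From miR-193a-3p to miR-193b-3p the substitutions are U9C, A20G and G21C, with positions counted from 1 at the 5′ end, and none falls in the seed. From miR-365-2-5p to miR-365-1-5p they are C10U, A11G and C19A, again outside the seed. The miR-193 5p arms differ at 5 positions, of which U5G and C6U fall in the seed, so these arms carry different seeds. Seeds were also searched among the 1679 mature mouse miRNAs of the RefSeq table, not of the deposited one. The seed ACUGGCC is held by the 2 miR-193 3p arms and the seed GGGACUU by the 2 miR-365 5p arms, with no further holder of either.

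The promoter window of Gm32817, from 250 bases before to 50 after its RefSeq start (chr16:13447702-13448001, plus strand), is shown because both hairpins of the chromosome 16 locus lie within the RefSeq model of that gene, though not within the GENCODE one, and their arms were measured together. Its CG pairs are in capitals.
Gm32817: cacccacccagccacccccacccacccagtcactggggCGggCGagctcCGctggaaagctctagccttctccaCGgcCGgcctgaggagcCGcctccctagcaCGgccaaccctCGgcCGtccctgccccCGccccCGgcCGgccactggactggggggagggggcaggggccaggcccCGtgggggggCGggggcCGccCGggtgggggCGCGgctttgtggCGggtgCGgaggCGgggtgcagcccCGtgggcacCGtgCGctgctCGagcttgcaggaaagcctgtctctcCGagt
The window holds 26 CG pairs. The median over 32851 RefSeq windows of the same length was 7, and 16.9% of them held as many. GGGCGG, the core of the GC box, had 4 matches over both strands. At least 1 match is held by 35.7% of all windows, and the share with 4 or more was not counted. Windows were not matched for their CG pairs. AGGTCA, a nuclear receptor half-site, had 0 matches, against 16.3% of windows with at least 1.

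Libraries were compared on the normalized log2 abundances that the authors deposited, which have a floor of 3.32 (10 on the linear scale). The design text gives about 13800000 mapped reads per sample, and the table does not give the depth of each library. The libraries had between 235 and 273 miRNAs above the floor. The muscle miRNA miR-133a-3p set BF-EPA 4 (17.20) and SUB-EPA 3 (16.90) apart from the other 4 libraries (10.32 to 13.32). The epithelial miRNA miR-205-5p stood at 15.02 in SUB-EPA 1, at 5.74 and 7.35 in the other SUB-EPA libraries and at the floor in brown fat. Removing single libraries, and the pair high in miR-133a-3p, was therefore tried for each arm. As checks of the tissues, miR-378a-3p, abundant in brown fat, was 3.37 higher on the log2 scale in BF-EPA (all 3 libraries at 18.67, the highest value of the table, where the normalization sets the size of the difference), and miR-196a-5p, from a Hox cluster, was at the floor in all 3 BF-EPA libraries and at 10.70 to 10.93 in SUB-EPA.

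Both arms of miR-193b, both 5p arms of miR-365, the shared miR-365-3p and miR-193a-5p were higher in brown fat, and miR-193a-3p was higher in subcutaneous fat. That is, 6 of the 7 arms were higher and 1 lower in BF-EPA at an adjusted p of 0.05 (limma, Benjamini-Hochberg over 269 tested miRNAs, n = 3 per tissue). Across all tested miRNAs 69.1% passed this threshold, 33.5% as higher and 35.7% as lower. The 2 tissues did not overlap for any of the 7 arms, nor for 74% of all tested miRNAs (brown fat above in 33.8% and subcutaneous fat above in 40.1%). The median difference, BF-EPA minus SUB-EPA, was 2.62 over the 7 arms and -0.45 over all tested miRNAs. All 7 passed the filter on low values, but miR-193b-5p and miR-365-1-5p passed through brown fat alone. MiR-365-2-5p would have fallen just short of it without its brown values. These counts therefore describe the arms and are no test of them as a set. In whole tissue, a different number of cells of one type and a different amount of RNA per cell cannot be told apart.

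**Figure D1:**
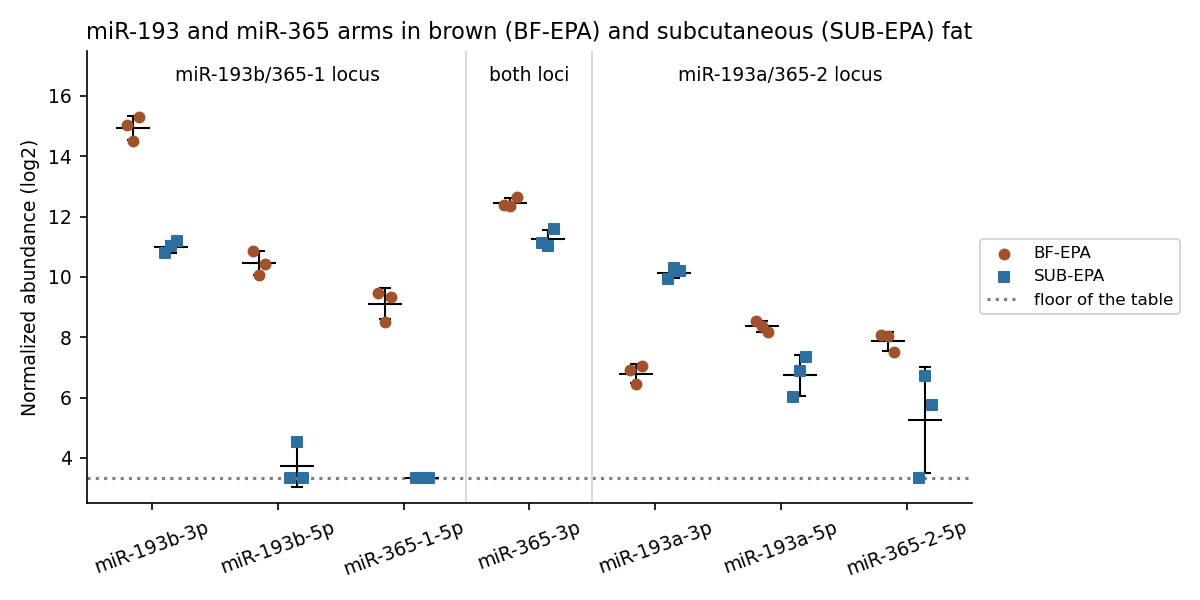
Normalized log2 abundance of each arm in the 3 BF-EPA (circles) and 3 SUB-EPA (squares) libraries, with mean and SD as black bars and the floor of the table dotted. The tissues are separate for every arm, and miR-193a-3p is the 1 arm with SUB-EPA above.

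MiR-193b-3p, the abundant arm of its hairpin, was the highest of the 7 in brown fat. It stood at 15.02, 14.52 and 15.30 in BF-EPA 3, 4 and 5 and at 10.79, 11.02 and 11.20 in SUB-EPA 1, 3 and 8 (normalized log2 abundance). Every brown library was above every subcutaneous one, with a gap of 3.32 between the nearest 2. It ranked 15 to 20 among all miRNAs of a library in brown fat and 67 to 76 in subcutaneous fat. The difference was 3.95 ± 0.23 (log2, SE; n = 3 per tissue), or 15.4-fold, with a limma adjusted p of 3.9e-05.

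MiR-193b-5p, the partner arm, was nearly confined to brown fat in these libraries. Its values were 10.87, 10.08 and 10.43 in BF-EPA 3, 4 and 5, while SUB-EPA 1 and SUB-EPA 8 were at the floor and SUB-EPA 3 was at 4.53. No subcutaneous library came within 5.54 log2 units of a brown one. The log2 difference was 6.74 ± 0.44 SE (limma adjusted p = 4.9e-05, n = 3 per tissue), the fifth largest in absolute size of the tested miRNAs. Because it is measured against the floor, its size depends on the constant used: it was 4.75 with 40 added to the linear values and 9.18 with the floor subtracted and 1 added, with the call kept in both. The arm passed the filter on low values through brown fat alone, so its call says little beyond its values.

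MiR-365-1-5p, the arm that marks the chromosome 16 copy of miR-365, was found above the floor in brown fat alone. It stood at 9.45, 8.52 and 9.35 in BF-EPA 3, 4 and 5 (9.10 ± 0.51 SD, n = 3) and at the floor in all 3 SUB-EPA libraries. BF-EPA 4 was the lowest of the brown libraries for it, as for both miR-193b arms. No fold is given against a tissue listed at the floor. The limma adjusted p of 4.9e-05 is no support for a difference of this size: the arm passed the filter through brown fat alone, and the other tissue added no spread. The fitted log2 difference of 5.78 fell to 3.57 with 40 added and was 9.08 with the floor subtracted and 1 added.

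MiR-365-3p, the abundant arm made by both loci, differed least in size of the 7 arms. Its values were 12.40, 12.34 and 12.65 in BF-EPA 3, 4 and 5 and 11.12, 11.02 and 11.60 in SUB-EPA 1, 3 and 8. The tissues did not overlap, but the nearest libraries were 0.74 apart. The difference was 1.22 ± 0.20 (log2, SE; n = 3 per tissue), or 2.33-fold, with a limma adjusted p of 0.0023. Of the 7 arms it has the lowest GC content, 31.8% against 50% to 60.9% in the other 6. Abundance ran with GC content differently in the tissues: across 229 tested miRNAs Pearson's r was 0.055 to 0.082 in BF-EPA libraries and -0.36 to -0.29 in SUB-EPA libraries (miRNAs within a library are not independent replicates). With each library's linear GC trend removed, the miR-365-3p difference was 3.80 and that of miR-193b-3p 2.97, and both kept their calls.

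**Figure D2:**
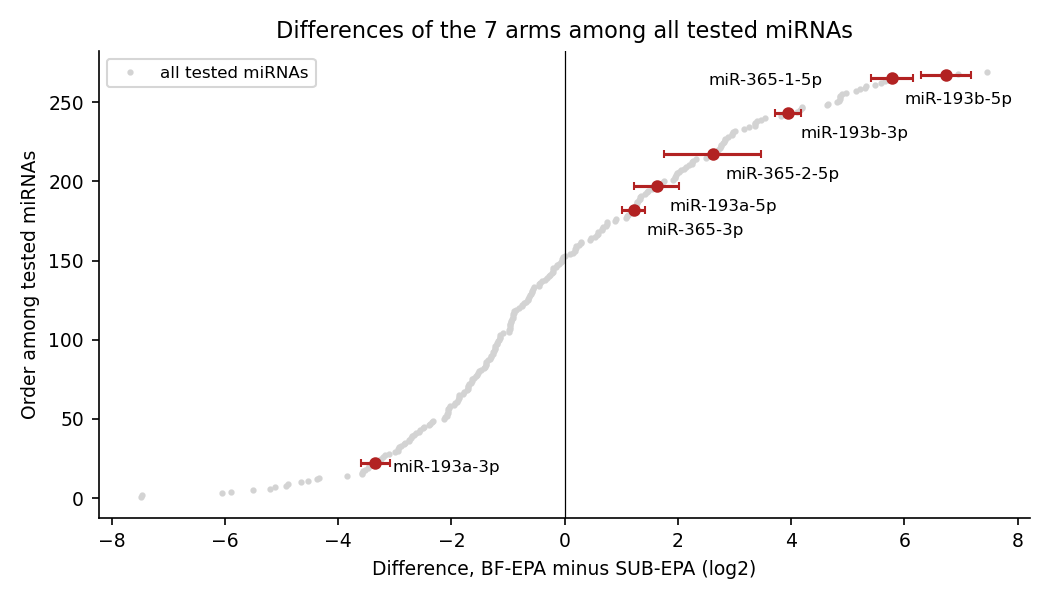
Difference between tissues (BF-EPA minus SUB-EPA, log2; bars are SE) for the 269 tested miRNAs in ascending order (grey), with the 7 arms in red. MiR-193b-5p and miR-365-1-5p lie near the upper end and miR-193a-3p lies on the lower side.

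MiR-193a-3p, which carries the same seed as miR-193b-3p, ran the other way. It stood at 6.90, 6.45 and 7.03 in BF-EPA 3, 4 and 5 and at 9.93, 10.29 and 10.21 in SUB-EPA 1, 3 and 8. All subcutaneous libraries were above all brown ones, by at least 2.90. The difference was -3.34 ± 0.25 (log2, SE; n = 3 per tissue), or 10.2-fold higher in subcutaneous fat, with a limma adjusted p of 7e-05. Its rank in the library was 181 to 199 in brown fat and 86 to 93 in subcutaneous fat.

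MiR-193a-5p, from the same hairpin, was higher in brown fat. The values were 8.55, 8.37 and 8.17 in BF-EPA 3, 4 and 5 and 6.01, 6.87 and 7.35 in SUB-EPA 1, 3 and 8. The tissues did not overlap, and the subcutaneous libraries were the more spread (SD 0.68 against 0.19). The difference was 1.62 ± 0.39 (log2, SE; n = 3 per tissue), or 3.08-fold, with a limma adjusted p of 0.0098. The call was lost when 2 libraries were left out together: the limma adjusted p was 0.0898 without BF-EPA 3 and SUB-EPA 3, and 0.0836 without the pair high in miR-133a-3p (BF-EPA 4 and SUB-EPA 3).

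MiR-365-2-5p, the arm that marks the chromosome 11 copy of miR-365, had the weakest call of the 7. It stood at 8.07, 8.04 and 7.51 in BF-EPA 3, 4 and 5, at the floor in SUB-EPA 1, at 6.71 in SUB-EPA 3 and at 5.74 in SUB-EPA 8. The tissues did not overlap, but the subcutaneous libraries spanned 3.39 log2 units. The log2 difference was 2.62 ± 0.86 SE (limma adjusted p = 0.033, n = 3 per tissue). The arm reached the filter on low values only with its brown libraries, so its call says little beyond its values. The call was lost without BF-EPA 3 (limma adjusted p = 0.106), BF-EPA 4 (0.103), BF-EPA 5 (0.0783) or SUB-EPA 8 (0.0653), and with the GC trend removed (difference 1.41, adjusted p = 0.152). Without SUB-EPA 1, the library at the floor, the difference was 1.65.

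The arms of Mir193a therefore differed between tissues in opposite directions, and the more abundant arm was not the same in the 2 tissues. Within a library, miR-193a-3p minus miR-193a-5p was -1.64, -1.92 and -1.14 log2 units in BF-EPA 3, 4 and 5 and 3.92, 3.42 and 2.85 in SUB-EPA 1, 3 and 8. The 5p arm was thus the higher one in every brown library and the 3p arm in every subcutaneous one. The mean balance was -1.57 ± 0.40 in BF-EPA and 3.40 ± 0.54 in SUB-EPA (SD, n = 3 each), a shift of -4.97. An exact two-sided permutation test gave p = 0.1, the smallest that 3 against 3 libraries allow. It was 1 of 4 balances tested, and each had this exact p, also after Benjamini-Hochberg adjustment. In every balance with miR-193a-3p the 2 arms had already separated in opposite directions. This p was then fixed in advance and adds no support. The shift between the Mir193a arms was -4.37 with the GC trend removed. Of 53 hairpins with both arms tested, 25 had both arms past the limma threshold and 9 of these had them in opposite directions. An arm shared between hairpins, such as miR-125b-5p, was counted with each of them, so the hairpins are not all independent. The arm difference of Mir193a was the second largest of the 53 in absolute size, after that of Mir1843b (named after its value was seen), and the median over the 53 was 1.60. The number with opposite directions was 4 without the pair high in miR-133a-3p and 5 without BF-EPA 3 and SUB-EPA 3. Mir193a was in neither count, since miR-193a-5p had lost its call (limma adjusted p = 0.0836 and 0.0898).

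In Mir193b, by contrast, both arms were higher in brown fat, with the 5p arm at the floor in 2 subcutaneous libraries. The 3p arm led in every library, by 4.15 to 4.86 log2 units in brown fat. The tissue difference of the 5p arm exceeded that of the shared 3p arm by 4.56 in Mir365-1 and by 1.40 in Mir365-2 (both log2, and both affected by values at the floor).

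**Figure D3:**
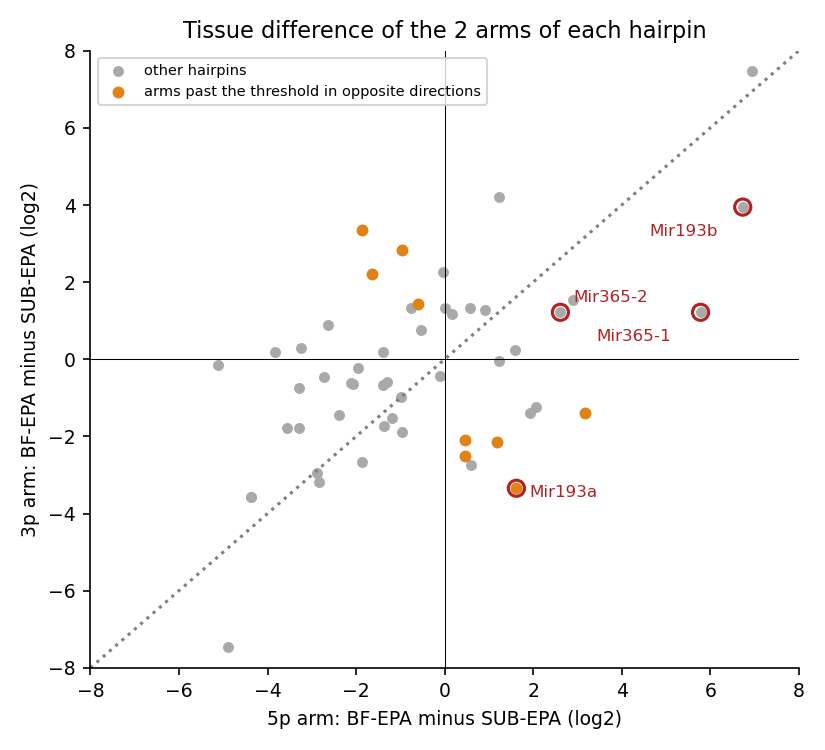
Tissue difference (BF-EPA minus SUB-EPA, log2) of the 5p arm (x axis) against the 3p arm (y axis) for 53 hairpins with both arms tested; the dotted line marks equal differences. Mir193a lies in the lower right quadrant, with its 5p arm higher and its 3p arm lower in brown fat, and the other 3 hairpins lie in the upper right.

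The share of the seed ACUGGCC that each paralog supplied differed between the tissues. MiR-193b-3p exceeded miR-193a-3p by 8.12, 8.07 and 8.26 log2 units in BF-EPA 3, 4 and 5, and by 0.86, 0.73 and 0.99 in SUB-EPA 1, 3 and 8. It was the higher of the pair in all 6 libraries, and its lead did not overlap between the tissues. The shift of 7.29 had an exact two-sided permutation p of 0.1 and was 6.11 with the GC trend removed. On the linear scale with the floor subtracted, miR-193b-3p made up 99.7% of the pair in each brown library and 64.5%, 62.5% and 66.6% in SUB-EPA 1, 3 and 8; these shares take the floor as the zero of the scale. The sum of the pair, on the log2 scale, was 15.03, 14.52 and 15.30 in BF-EPA 3, 4 and 5 and 11.41, 11.69 and 11.78 in SUB-EPA 1, 3 and 8. Every subcutaneous library was thus below every brown one in the summed seed, as it was in miR-193b-3p alone.

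**Figure D4:**
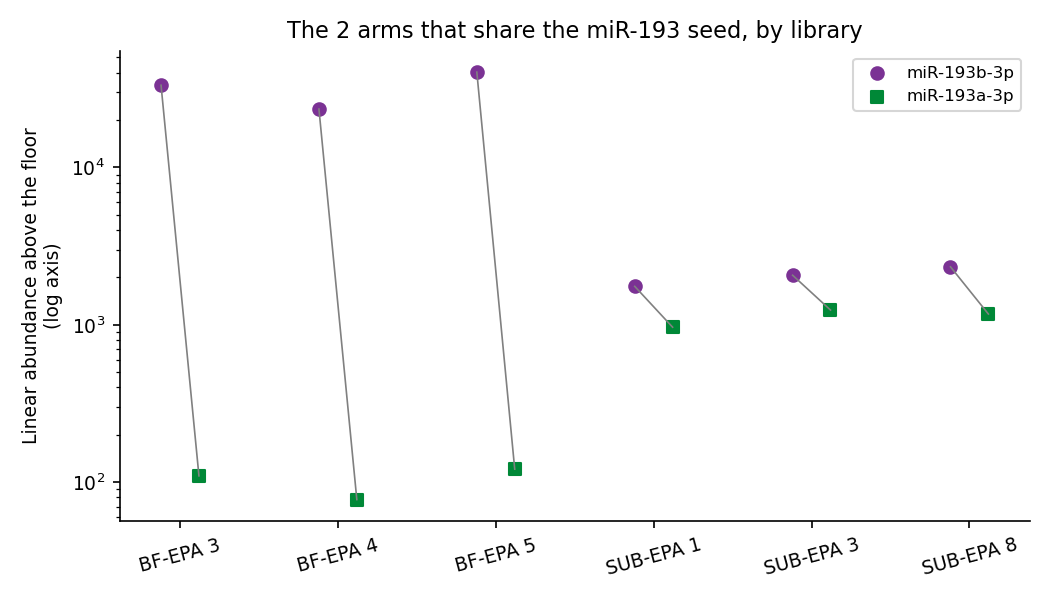
Linear abundance above the floor (log axis) of miR-193b-3p (circles) and miR-193a-3p (squares) in each library, joined by a line. The lines are long in the 3 BF-EPA libraries and short in the 3 SUB-EPA libraries, where miR-193b-3p is 62.5% to 66.6% of the pair.

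For the 2 arms with seed GGGACUU, miR-365-1-5p was the higher in all 3 brown libraries, by a mean of 1.23 ± 0.69 log2 units (SD, n = 3). On the linear scale with the floor subtracted it made up 72.8%, 58.4% and 78.8% of the pair in BF-EPA 3, 4 and 5. In subcutaneous fat it was at the floor, and the values above the floor in SUB-EPA 3 and SUB-EPA 8 were those of miR-365-2-5p alone. No test was made here because of the floor. Both seed pairs had the chromosome 16 copy ahead in brown fat; in subcutaneous fat miR-193b-3p stayed ahead of its paralog and miR-365-1-5p did not.

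MiR-193b-3p and miR-365-3p, the latter summed over both loci, differed by unequal amounts. MiR-193b-3p minus miR-365-3p was 2.62, 2.18 and 2.64 log2 units in BF-EPA 3, 4 and 5 and -0.33, 0 and -0.40 in SUB-EPA 1, 3 and 8. MiR-193b-3p was thus the higher in brown fat, and the 2 were level or reversed in subcutaneous fat. The shift of 2.73 (exact two-sided permutation p = 0.1) turned to -0.83 with the GC trend removed, so its direction depends on that step. MiR-365-3p minus miR-193a-3p shifted by 4.56 (exact two-sided permutation p = 0.1, again fixed in advance), and by 6.93 with the GC trend removed. Levels of different arms in 1 library can also reflect how well each sequence was captured, which was not tested.

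**Figure D5:**
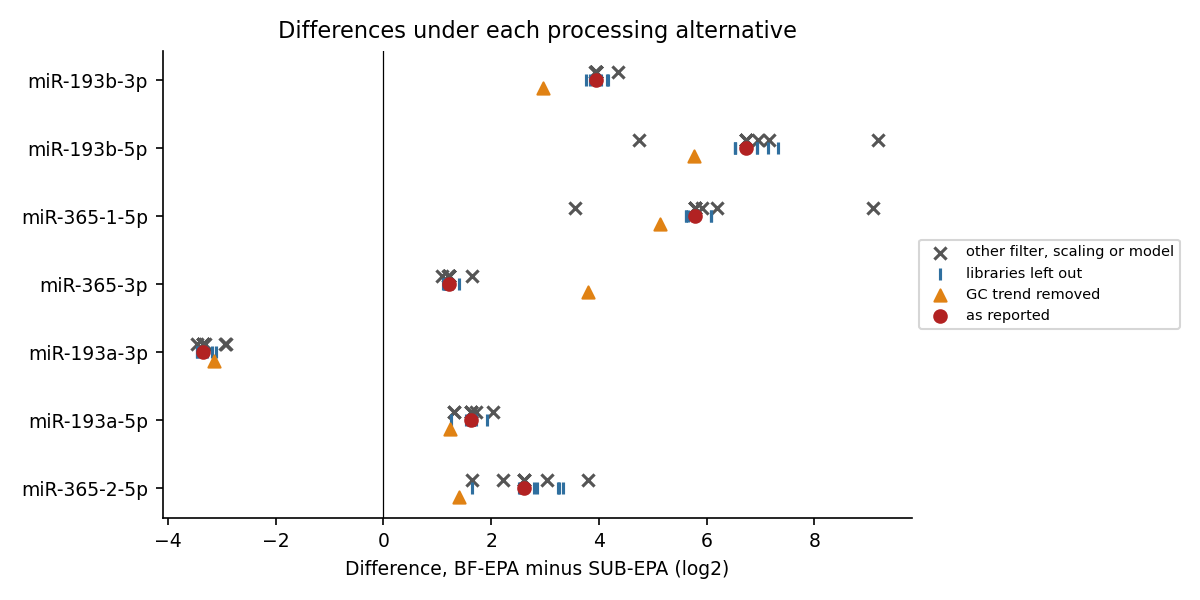
Tissue difference of each arm (BF-EPA minus SUB-EPA, log2) as reported (red) and under other filters, constants, scalings and models (crosses), with libraries left out (ticks) and with the GC trend removed (triangles). No difference shown changes sign, and miR-365-2-5p and miR-193a-5p have no value under the strictest filter. The triangle of miR-365-3p lies far to the right of its reported value.

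Within brown fat, BF-EPA 4 was the lowest library for 5 of the 7 arms, all but miR-193a-5p and miR-365-2-5p. BF-EPA 4 was also the highest brown library in miR-133a-3p, and the 1 library with the muscle miRNA miR-206-3p above the floor (7.71). Without BF-EPA 4 and SUB-EPA 3, the pair high in that miRNA, the difference was 4.17 for miR-193b-3p (limma adjusted p = 0.0019), 1.17 for miR-365-3p (0.024) and -3.10 for miR-193a-3p (0.0029). SUB-EPA 1, high in miR-205-5p, was the lowest subcutaneous library for miR-193b-3p, miR-193a-3p, miR-193a-5p and miR-365-2-5p. Without any 1 library, the differences of miR-193b-3p ran from 3.77 to 4.16 and those of miR-193a-3p from -3.46 to -3.17, all past the threshold.

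Other miRNAs reported to promote the brown or beige fat program were mixed. Of 12 tested, 7 were higher and 4 lower in BF-EPA (limma adjusted p of 0.05), with a median difference of 1.69, against 33.5% higher and 35.7% lower and a median of -0.45 over all tested miRNAs; the 4 lower ones are a share near that background. At the extremes were miR-129-5p, at the floor in SUB-EPA and at 9.85 to 10.74 in BF-EPA, and miR-196a-5p, described above. Of 10 tested miRNAs reported to restrain brown fat, 1 was higher and 5 lower, with a median of -1.03, beside the same 33.5%, 35.7% and -0.45 over all tested miRNAs. The largest negative difference was that of miR-221-3p (-2.48) and the largest positive that of miR-106b-5p (1.59, limma adjusted p = 0.14). MiR-455-5p, miR-32-5p and miR-155-5p were at the floor in all libraries. The other arm of miR-455, miR-455-3p, was among the 7 higher ones. It stood at 12.98 to 14.02 in BF-EPA and 6.16 to 9.31 in SUB-EPA (difference 5.83, limma adjusted p = 0.00092).

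Some miRNAs of other cell types differed between the tissues too, and their part in the differences above was not tested. The counts below stand against 33.5% higher and 35.7% lower among all tested miRNAs. Each sum is the log2 of the summed linear values, with the floor left in, so the most abundant member weighs most. For 5 stromal miRNAs the sum was 14.64 to 14.91 in BF-EPA and 16.47 to 16.80 in SUB-EPA. Of these miRNAs 4 of 5 were lower in brown fat, miR-199a-5p the most (-4.38). The sum of 2 endothelial arms of miR-126 was 11.66 to 11.90 and 13.28 to 13.62, with both lower in brown fat and miR-126-3p the most (-2.04). Of 4 tested leukocyte miRNAs 3 were lower and miR-150-5p was higher (1.27). The most lowered was miR-223-3p (-5.51), which was at the floor in 2 BF-EPA libraries, so this size depends on the floor. The list's sum, made up mostly of miR-150-5p, was 15.03 to 15.47 in BF-EPA and 13.88 to 14.31 in SUB-EPA. MiR-142-3p and miR-155-5p were at the floor throughout. Of the red cell miRNAs, miR-486-5p was higher (2.95) and miR-451a lower (-1.49), while both miR-144 arms were at the floor. Their sum, made up mostly of miR-486-5p, was 17.68 in each BF-EPA library and 14.25 to 15.15 in SUB-EPA.

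The muscle sum ran from 10.38 to 17.21 in BF-EPA and from 10.79 to 16.91 in SUB-EPA, so it overlapped between the tissues. None of its 4 tested members passed the threshold (differences from -1.15 for miR-133b-3p to 1.46 for miR-206-3p). MiR-1a-3p, miR-208b-3p and miR-499-5p were at the floor, also in BF-EPA 4 and SUB-EPA 3, the libraries high in miR-133a-3p. In all, 910 of the 1251 miRNA rows were at the floor in every library. Whether such a row was counted at all is not known. The epithelial sum was 5.91 to 6.84 in BF-EPA and 6.69 to 15.08 in SUB-EPA, with 0 of 4 past the threshold and miR-205-5p nearest to it (limma adjusted p = 0.054). MiR-122-5p, abundant in liver, ranged from 5.60 to 9.97 in BF-EPA and was at the floor in SUB-EPA.

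Over the 6 libraries, the 5 tested miRNAs whose log2 values were most like those of miR-193b-3p were miR-378a-5p, miR-1900, miR-129-5p, miR-431-5p and miR-6406, with Pearson's r from 0.993 to 0.996. MiR-378a-5p stood at 13.99 in BF-EPA and 9.89 in SUB-EPA on average, the closest of the 5 in level. The 5 most like miR-193a-3p were miR-322-5p, miR-30a-5p, miR-126-3p, miR-497-5p and miR-25-3p, with r from 0.993 to 0.997. In both cases 47 of 262 miRNAs had an r over 0.95, and the difference between the tissues is part of each r. These correlations describe the libraries, which share 1 normalization, and carry no test.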

How the data were processed

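Per the series' design text, small RNA reads were aligned to mm10 and counts were scaled to total usable reads with 40 counts added; the authors deposited normalized log2 values. The floor of the table, 10 on the linear scale, does not match 40 added counts, so the normalization is not fully described and what the floor stands for is unknown. For the aligner and the miRNA annotation, a name is not given in the sources used here. Of the top 100 ranks, 64% held 1 value in all libraries (tolerance 1e-06), so the distributions were made nearly equal and differences are relative to the rest of each library. The design text states about 13800000 mapped reads per sample; the depth of each library is not given in the table.

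BF-EPA and SUB-EPA were compared in limma 3.58.1 (R 4.3.3; mean-variance trend, Benjamini-Hochberg adjustment) on miRNAs whose mean above the floor was at least 24.0 linear units, a small fixed share of the mean library total (269 miRNAs), and the fit was tested on simulated data. Balances between arms were compared with exact permutation tests in Python 3.11.15. Coordinates and sequences are from RefSeq GRCm38.p6 and GENCODE M21. Mature sequences matched 229 tested miRNAs (85.1%) for the GC alternative. The alternatives were other constants, filters, scalings and variance models, collapsed identical rows, GC trend removal and leaving out libraries; removal of the 2 libraries with most miR-133a-3p, the GC trend in balances and the count of hairpins with opposite arms under each alternative were added after seeing the data.

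The members and lists were chosen with earlier results of these data known. Named were the 7 arms, the 5 miRNAs most correlated with miR-193b-3p and with miR-193a-3p, the extremes of each list and the markers of other cell types. The labels do not say whether the libraries came from separate mice, or from the same mice in both tissues, so p-values measure the spread between these libraries.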

Additional observations from a re-analysis of the deposited data

How the results depend on the processing

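No difference of the 7 arms changed sign under the alternatives that gave it a value; miR-365-2-5p and miR-193a-5p did not pass the filter 10 times as strict and have no value there. The calls of miR-193b-3p, miR-365-3p and miR-193a-3p held under all alternatives tried. Those of miR-193b-5p and miR-365-1-5p did too, but both passed the filter through brown fat alone and stood at the floor in 2 and 3 SUB-EPA libraries, so this says nothing about stability. That of miR-193a-5p was lost without both libraries numbered 3 (difference 1.59) and without BF-EPA 4 and SUB-EPA 3, the pair high in miR-133a-3p (1.68). That of miR-365-2-5p was lost in these settings (3.25 and 3.26), with the floor subtracted and 1 added (3.80) and with the GC trend removed (1.41). It was also lost when BF-EPA 3, BF-EPA 4, BF-EPA 5 or SUB-EPA 8 was left out alone. Leaving out 1 library gave differences from 1.65 to 3.34. The shift of miR-193b-3p minus miR-365-3p reversed with the GC trend removed (-0.83). The cause was not tested in these cases. Of all tested miRNAs, 90 were higher and 96 lower in BF-EPA; the filter 10 times as strict gave 58 and 69 because only 157 were tested, and median-of-ratios scaling gave 103 and 82, moving the median difference from -0.45 to -0.04. That scaling left 1 endothelial arm lower instead of 2, and the stricter filter gave 1 epithelial miRNA lower instead of 0 and 4 hairpins with opposite arms instead of 9. Mir193a was not among these hairpins, because miR-193a-5p was not tested under that filter. No paired analysis was possible because the 2 groups share only the number 3. The unknown depth of each library leaves arms at the floor without a detection limit.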
